A study of Mus musculus with 7 samples.

Results

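Chemokines are small secreted or membrane-anchored proteins that direct the movement of cells, and their receptors are membrane proteins with a bundle of helices that mostly signal through inhibitory G proteins. Their genes were taken from the authors' deposited table by symbol alone: a Ccl, Cxcl, Cx3cl or Xcl ligand or a Ccr, Cxcr, Cx3cr, Xcr or Ackr receptor symbol followed by a number and at most 1 letter. The rule found 55 genes among 23358 entries, 36 ligands and 19 receptors. Pf4 and Ppbp are chemokines whose symbols the rule does not match, and the atypical receptors that the table lists under the older symbols Darc, Ccbp2 and Ccrl1 are outside it too, so they are given separately. The atypical receptor ACKR3 is included because the table names it Cxcr7.

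The libraries were made from cells sorted from the brains of C57Bl6 mouse embryos at stage E14.5 and labelled as endothelial. There were 3 control libraries and 4 labelled as lacking Tgfbr2, the type II receptor for transforming growth factor β, here called Tgfbr2-deficient or deficient. The sorted cells carried the Ai14 allele, a reporter that makes the red protein TdTomato once Cre recombinase has acted, and 2000 to 5000 of them went into a library. The Cre driver, the deleted exons, the genotype of the controls beyond that word, and whether each library came from 1 embryo could not be taken from the sources at hand. RNA was measured as FPKM (fragments scaled to transcript length and to the size of the library), and the table gives 1 FPKM value per gene and group, so no value per library, SD or depth can be shown. The error measure for a gene is therefore the q-value that the authors' Cuffdiff run gave it. The options of that run are not stated, so how far a q-value reflects the spread between these libraries is unknown. That spread may itself be technical.

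Several properties of the whole comparison stand beside every value that follows. Tgfbr2 itself was at 91.1 FPKM in controls and 65.4 FPKM in deficient libraries, with q = 0.0953 in the authors' deposited table, so it was not called different. The sorted material held more macrophage than endothelial transcript: 16 microglia and macrophage markers summed to 12349 FPKM in controls and 5921 FPKM in deficient libraries, against 70.5 and 346 FPKM for 12 endothelial markers. The most abundant macrophage markers, C1qb and C1qc, made 2432 and 2026 FPKM in controls, and the most abundant endothelial ones, Egfl7 and Cldn5, 47.7 and 5.02 FPKM. Of those 16 macrophage markers 12 were called lower and 1, Sall1, higher. Of the 12 endothelial markers 11 were called higher and none lower. A call needed at least 1 FPKM in 1 group. Tek, Flt1, Emcn, Erg and Sox17 were under 1 FPKM in controls, so they could not have been called lower. In a bulk library, fewer cells of a type and less RNA per cell cannot be told apart, and the part of cell mix in the results below was not tested.

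In the brain, microglia are best known for the fractalkine receptor CX3CR1, whose ligand CX3CL1 is made by neurons and endothelium. CXCL12, from meninges, vessels and mural cells, acts through CXCR4, while ACKR3 binds and removes it without the usual G protein signal. The inflammatory CC chemokines are made largely by myeloid cells when activated, and they attract monocytes and other leukocytes through receptors such as CCR1 and CCR2.

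Abundant chemokine genes fell in the Tgfbr2-deficient group and a set of less abundant ones rose. Cuffdiff tested 33 of the 55 genes, and 31 of them also reached 1 FPKM in at least 1 group. Among these 31, 12 were called lower at q under 0.05, or 38.7%, where 14.7% of all 13356 genes tested under the same rule were called lower. Another 8 were called higher, or 25.8%, where 23.9% of all tested genes were, a share near that background. The remaining 11 were not called. The 12 that fell comprised 7 ligands and 5 receptors, and the 8 that rose comprised 3 ligands and 5 receptors. The median log2 fold, taken on FPKM + 1 as Tgfbr2-deficient over control, was 0.11 over the 31 genes and −0.08 over all tested genes.

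**Figure D1:**
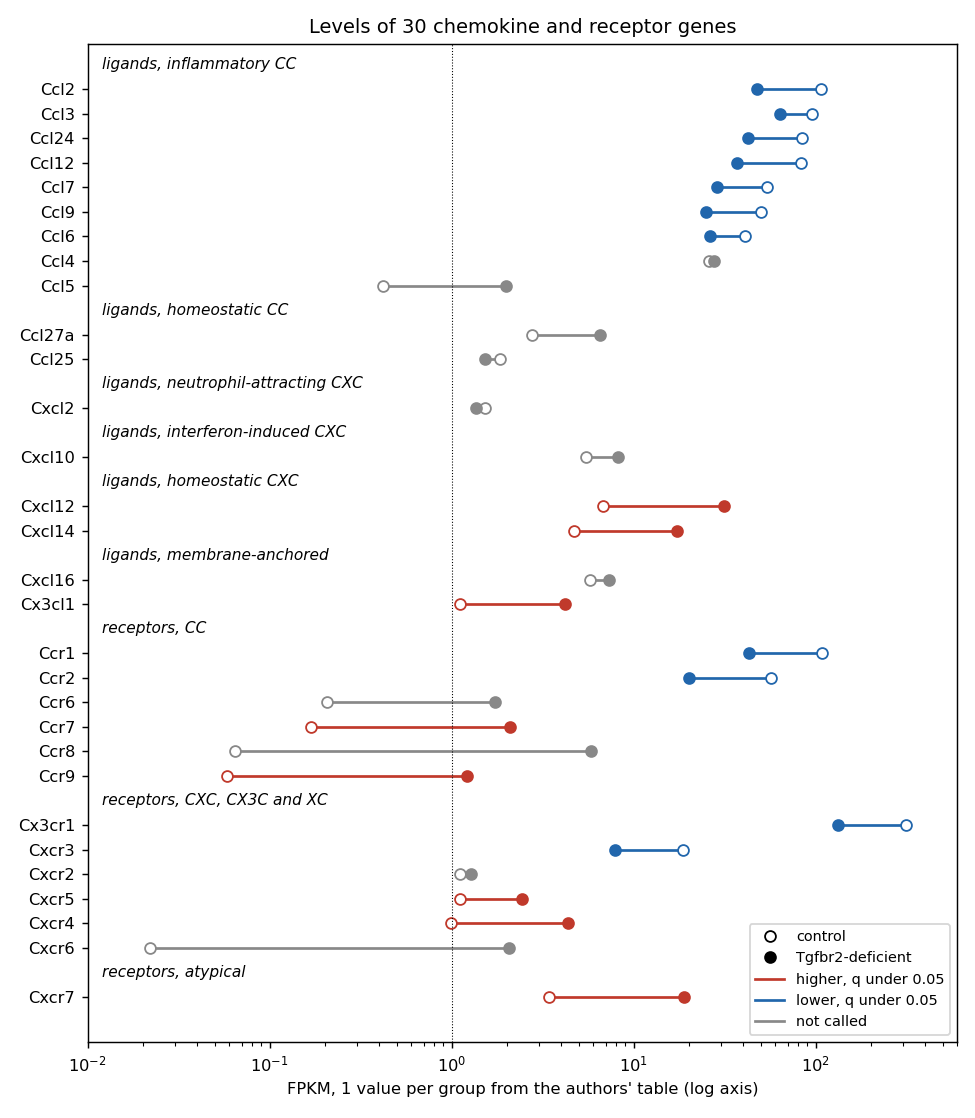
FPKM of 30 of the 31 chemokine and receptor genes that were tested and reached 1 FPKM, on a log axis and grouped by role, with an open point for the control group, a filled point for the Tgfbr2-deficient group and a line between them coloured by the call. Each point is 1 group value with no error bar, the dotted line marks 1 FPKM, and the open points of the genes that fell lie to the right of those of the genes that rose.

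The direction went with the level, as it did among all tested genes. Of 13 members at 10 FPKM or more in the control group, 12 fell and 1, Ccl4, was not called, while all 8 members that rose were under 7 FPKM there. Since a control value takes part in the fold, this split favours falls in any set of genes, and no share of all tested genes is given for it. The members were therefore also counted by the mean of both groups. Of 15 members with a mean of 10 FPKM or more, 11 fell and 3 rose, or 73.3% and 20.0%. Among all 6646 tested genes at that mean, 25.4% were called lower and 9.69% higher. The median log2 fold on FPKM + 1 was −0.96 for those 15 members and −0.31 for all genes at that level. Of 16 members with a lower mean, 5 rose and 1 fell, or 31.25% and 6.25%. These shares were near the 38.0% and 4.16% of all 6710 tested genes at that level. Ccl5, Ccr6, Ccr7, Ccr8, Ccr9, Cxcr4 and Cxcr6 were under 1 FPKM in controls and passed the filter through the deficient group alone. They could not have been called lower.

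**Figure D2:**
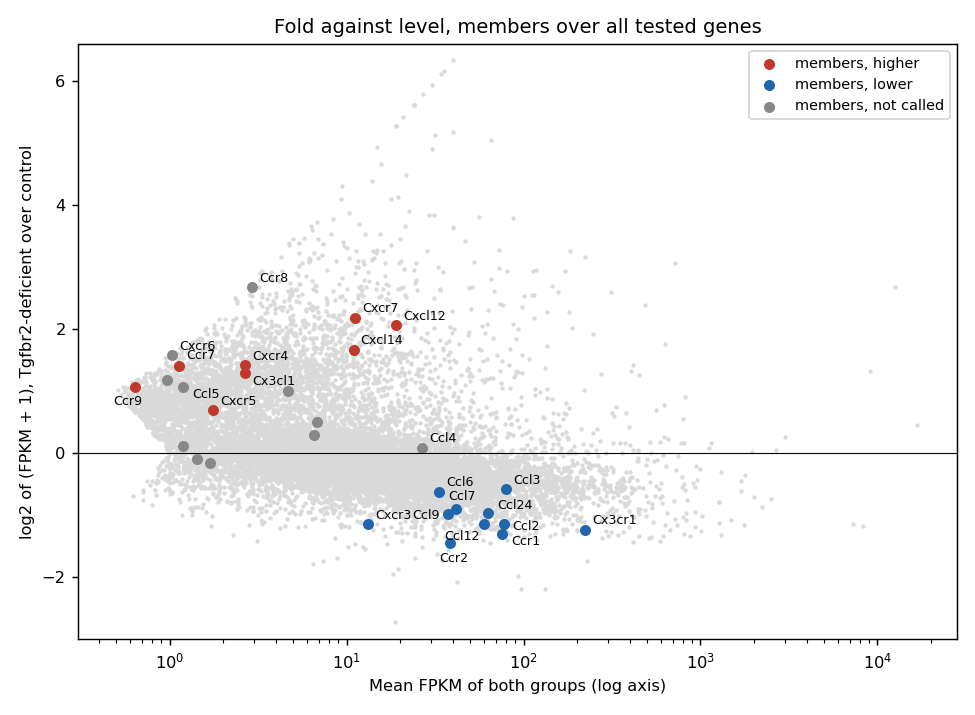
Log2 fold of FPKM + 1, Tgfbr2-deficient over control, against the mean FPKM of both groups on a log axis, with 30 of the 31 members coloured by call over all other tested genes in grey; 15 non-member genes lie below the axis. The members that fell sit at log2 folds from −1.46 to −0.59, and those that rose at 0.70 to 2.18.

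Among the ligands that the symbol rule takes in, the inflammatory CC ligands held most of the summed FPKM. Of the 9 that passed the filter 7 fell, or 77.8%, beside 14.7% of all tested genes and 25.4% of those at a mean of 10 FPKM or more. Ccl2, which recruits monocytes through CCR2, was at 107 FPKM in controls and 47.6 FPKM in deficient libraries. The authors' deposited table gives Ccl2 a log2 fold of −1.17 with q = 0.00029. Its neighbours Ccl7 and Ccl12 are further ligands of CCR2.

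Ccl12 went from 82.9 to 37.0 FPKM, a log2 fold of −1.17 with q = 0.00079 in the authors' deposited table. Ccl7 went from 54.2 to 28.6 FPKM, with −0.92 and q = 0.0043 in the authors' deposited table. Whether the 3 CCR2 ligands differed in fold was not tested. Ccl24, an eotaxin that acts on CCR3, went from 83.7 to 42.4 FPKM, a log2 fold of −0.98 with q = 0.00029 in the authors' deposited table, whereas the other eotaxins Ccl11 and Ccl26 were not tested and stood at 0.253 FPKM or less in both groups.

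Ccl9 and Ccl6, ligands of CCR1 found in rodents, also fell. Ccl9 went from 50.2 to 25.0 FPKM with q = 0.00029 and Ccl6 from 40.8 to 26.2 FPKM with q = 0.0311, both q-values from the authors' deposited table. The decrease of Ccl6 was the shallower, with a log2 fold of −0.64 against −1.01 for Ccl9, a difference that was not tested. Ccl6 lost its call at q under 0.01, and its fold centred on ribosomal protein genes was −0.08.

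Ccl3 and Ccl4, neighbouring genes for ligands that are commonly induced together in activated myeloid cells, had unlike values. Ccl3, which also binds CCR1, went from 95.8 to 63.5 FPKM, a log2 fold of −0.59 with q = 0.0338 in the authors' deposited table. Ccl4 stood at 25.8 and 27.5 FPKM, a log2 fold of 0.09, and the authors' deposited table gives q = 0.827. Ccl3 lost its call at q under 0.01, and centring on ribosomal protein genes, which moves every log2 fold up by 0.54, brought its fold to −0.05. The difference between the folds of Ccl3 and Ccl4 was not tested. Among the 36 ligands of the symbol rule, which leaves out the more abundant Pf4, Ccl3 ranked second after Ccl2 in the control group, and in the Tgfbr2-deficient group it ranked first.

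Ccl5, which T cells and natural killer cells make in quantity, was at 0.417 FPKM in controls and 1.97 FPKM in deficient libraries and was not called, with q = 0.0736 in the authors' deposited table. Beside it, Nkg7, a granule gene of cytotoxic lymphocytes, was called higher, at 0.173 and 7.36 FPKM, and the authors' deposited table gives q = 0.0358. The T cell receptor component Cd3e was listed at 0 FPKM in controls and 0.0354 FPKM in deficient libraries. Of 9 T, NK and B cell markers 4 passed the filter. Nkg7, Cd79a (0.277 and 1.92 FPKM, called higher) and Cd3g (0.0978 and 2.41 FPKM, not called) passed it through the deficient group alone, so they could not have been called lower. Cd4, which with Nkg7 was the most abundant, was not called, at 4.89 and 4.58 FPKM. The 9 summed to 5.66 FPKM in controls and 17.2 FPKM in deficient libraries.

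Of the CC and CXC chemokines that are made without inflammation, 2 of 4 that passed the filter rose, where 23.9% of all tested genes did. Cxcl12 guides CXCR4-bearing neurons, progenitors and endothelial tips. It was at 6.78 FPKM in controls and 31.5 FPKM in deficient libraries, 4.65 times higher. The authors' deposited table gives Cxcl12 a log2 fold of 2.22 with q = 0.00029.

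Cxcl14, a chemokine of epithelia and fibroblasts, rose from 4.72 to 17.2 FPKM, with a log2 fold of 1.87 and q = 0.00029 in the authors' deposited table. Both ligands were at several FPKM in the control group, so neither rise starts from a trace level. Ccl27a, a skin chemokine, stood at 2.76 and 6.55 FPKM and was not called, with q = 0.484 in the authors' deposited table. Ccl25, the thymic and intestinal ligand of CCR9, stood at 1.84 and 1.53 FPKM, and the authors' deposited table gives q = 0.672.

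The membrane-anchored chemokines have a mucin-like stalk and can be shed by ADAM proteases. Cx3cl1, fractalkine, rose from 1.11 to 4.21 FPKM, a log2 fold of 1.92 with q = 0.00029 in the authors' deposited table. Cxcl16 stood at 5.78 and 7.30 FPKM and was not called, and the authors' deposited table gives q = 0.344.

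None of the remaining CXC ligands reached 10 FPKM. Cxcl10, an interferon-induced ligand of CXCR3, stood at 5.46 and 8.18 FPKM with q = 0.177 in the authors' deposited table, and its relatives Cxcl9 and Cxcl11 were not tested and stayed at 0.151 FPKM or less. Among the neutrophil attractants Cxcl2 stood at 1.51 and 1.36 FPKM with q = 0.821 in the authors' deposited table. Cxcl1 had q = 0.0406 in the authors' deposited table but was under 1 FPKM in both groups, at 0.258 and 0.965 FPKM, and so is not counted as called. Of the 4 neutrophil-attracting and 3 interferon-induced ligand genes in the table, Cxcl2 and Cxcl10 alone were tested and passed the filter.

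Of the 14 receptors that passed the filter, 5 fell, or 35.7%, beside 14.7% of all tested genes and 25.4% of those at a mean of 10 FPKM or more. Cx3cr1, the fractalkine receptor, was the most abundant of all 55 genes in both groups, at 312 FPKM in controls and 132 FPKM in deficient libraries. The authors' deposited table gives Cx3cr1 a log2 fold of −1.24 with q = 0.00029. It ranked 196th by control FPKM and 456th by Tgfbr2-deficient FPKM among the 13356 tested genes.

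Ccr1, a receptor of monocytes and macrophages, fell from 108 to 43.0 FPKM, a log2 fold of −1.33 with q = 0.00029 in the authors' deposited table. Ccr2, which marks inflammatory monocytes, fell from 56.9 to 20.1 FPKM, a log2 fold of −1.50 with q = 0.00029 in the authors' deposited table. By log2 fold of FPKM + 1, Ccr2 had the deepest fall of the 31 members, at −1.46, slightly below the lowest of the 16 macrophage markers, Fcrls at −1.44.

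Cxcr3, best known on activated T cells, fell from 18.7 to 7.89 FPKM, a log2 fold of −1.24 with q = 0.00029 in the authors' deposited table. Ccr3, the eotaxin receptor, had q = 0.0449 in the authors' deposited table but stood at 0.962 and 0.474 FPKM, under the filter.

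Another 5 receptors rose, or 35.7%, beside 23.9% of all tested genes and 38.0% of those at a mean under 10 FPKM. Cxcr7 (ACKR3), the atypical receptor that takes up CXCL12, rose from 3.40 to 19.0 FPKM, 5.58 times, with a log2 fold of 2.48 and q = 0.00029 in the authors' deposited table. Cxcr4, the signalling receptor for CXCL12, rose from 0.994 to 4.33 FPKM, a log2 fold of 2.12 with q = 0.00029 in the authors' deposited table. Cxcr4 passed the filter through the deficient group alone and, like Cx3cl1, was not called at a minimum of 5 FPKM. The level of Cxcr7 was above that of Cxcr4 in both groups.

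Ccr7, which guides dendritic cells and lymphocytes to lymph nodes, rose from 0.168 to 2.10 FPKM, a log2 fold of 3.64 with q = 0.0023 in the authors' deposited table. Ccr9, a homing receptor of thymocytes and gut lymphocytes, rose from 0.0579 to 1.22 FPKM, a log2 fold of 4.39 with q = 0.00029 in the authors' deposited table. Cxcr5, the follicle-homing receptor of B cells, rose from 1.11 to 2.42 FPKM, a log2 fold of 1.12 with q = 0.010 in the authors' deposited table. All 3 passed the filter through the Tgfbr2-deficient group or stood close to 1 FPKM in the control group, and none of them was called at a minimum of 5 FPKM.

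Some of the widest ratios belonged to receptors that were not called. Ccr8, found on regulatory T cells and some skin-homing cells, was at 0.0648 FPKM in controls and 5.79 FPKM in deficient libraries, with q = 0.0612 in the authors' deposited table. Cxcr6, of resident T and natural killer cells, was at 0.0219 and 2.05 FPKM with q = 0.269 in the authors' deposited table. Ccr6, the CCL20 receptor, was at 0.205 and 1.73 FPKM with q = 0.120 in the authors' deposited table. With 1 value per group it cannot be seen whether such a value came from 1 library or from all 4. Cxcr2, the receptor of neutrophil attractants, stood at 1.11 and 1.28 FPKM, for which the authors' deposited table gives q = 0.679.

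The other 22 genes were not tested by Cuffdiff. They were Ccl1, Ccl8, Ccl11, Ccl17, Ccl19, Ccl20, Ccl21c, Ccl22, Ccl26, Ccl27b, Ccl28, Cxcl3, Cxcl5, Cxcl9, Cxcl11, Cxcl13, Cxcl17 and Xcl1 among the ligands and Ccr4, Ccr10, Cxcr1 and Xcr1 among the receptors. The highest value among them was 0.528 FPKM, for Ccl8 in the control group. The table lists 4 of them, Ccl21c, Ccl26, Ccl27b and Cxcr1, at 0 FPKM in both groups. Without counts, a value of 0 sets no upper limit on the level.

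Adding up the genes by role, the ligands summed to 572 FPKM in controls and 381 FPKM in deficient libraries, and the receptors to 516 and 251 FPKM. Inflammatory CC ligands held 541 of the 572 FPKM in the control and 300.3 of the 381 FPKM in the Tgfbr2-deficient group. The 12 genes that fell made 93.9% of the summed FPKM of all 55 genes in the control and 76.0% in the Tgfbr2-deficient group. The 8 that rose made 1.68% and 13.0%. These sums were not tested.

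The ligand genes were then set beside those of their receptors. Cx3cr1 fell and its ligand Cx3cl1 rose, so the ratio of ligand to receptor FPKM was 0.00357 in the control and 0.0319 in the Tgfbr2-deficient group. Ccr2 and its 3 ligands Ccl2, Ccl7 and Ccl12 all fell, and so did Ccr1 with 4 of its 5 ligands listed here, Ccl3, Ccl6, Ccl7 and Ccl9. Cxcl12 rose together with Cxcr4 and Cxcr7, and the ratio of Cxcl12 to Cxcr4 FPKM was 6.82 in the control and 7.27 in the Tgfbr2-deficient group.

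Cxcr3 fell while none of its ligands was called, and their summed level was 5.56 FPKM in controls and 8.38 FPKM in deficient libraries. Cxcl9 and Cxcl11 were not tested, so Cxcl10 alone of the Cxcr3 ligands could have been called. Ccr7, Ccr9 and Cxcr5 rose while no ligand of theirs among the 55 genes was called. The ligand genes Ccl19 and Ccl21c for Ccr7 and Cxcl13 for Cxcr5 were not tested, so of these ligands Ccl25 alone could have been called. Ccl21a, another CCR7 ligand, is joined with the gene model Gm1987 in 1 entry of the table and is not a member. These ratios compare transcript levels per length, and no ratio was tested.

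Many chemokine genes lie in tandem clusters, and the authors' coordinates in the mm10 build place 18 of the 55 in 3 clusters of 5 or more. On chromosome 11, Ccl2 (82035577 to 82037452), Ccl7 (82045712 to 82047523) and Ccl12 (82101845 to 82103399) all fell, and the 3 other genes of this 144 kb cluster, Ccl11, Ccl8 and Ccl1, were not tested. Further along the chromosome, a cluster of 139 kb holds Ccl5, Ccl9 (83572917 to 83578636), Ccl6 (83582061 to 83623693), Ccl3 (83647843 to 83649378) and Ccl4 (83662584 to 83664683), of which the middle 3 fell. The lowest coordinates of Ccl3 and Ccl4 lie 122 and 137 kb after the lowest of that cluster, and only Ccl3 of this pair was called.

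The receptor cluster on chromosome 9 held genes that moved in opposite directions. Ccr9, at its first end (123767211 to 123783457), rose, whereas Ccr1 (123962126 to 123968692) and Ccr2 (124102183 to 124109140) fell. Cxcr6, next to Ccr9, was not called. Elsewhere on chromosome 9, Cx3cr1 (120048683 to 120068296) fell. Ccr8, whose lowest coordinate lies 43.5 kb after that of Cx3cr1, was not called, with the values given above.

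**Figure D3:**
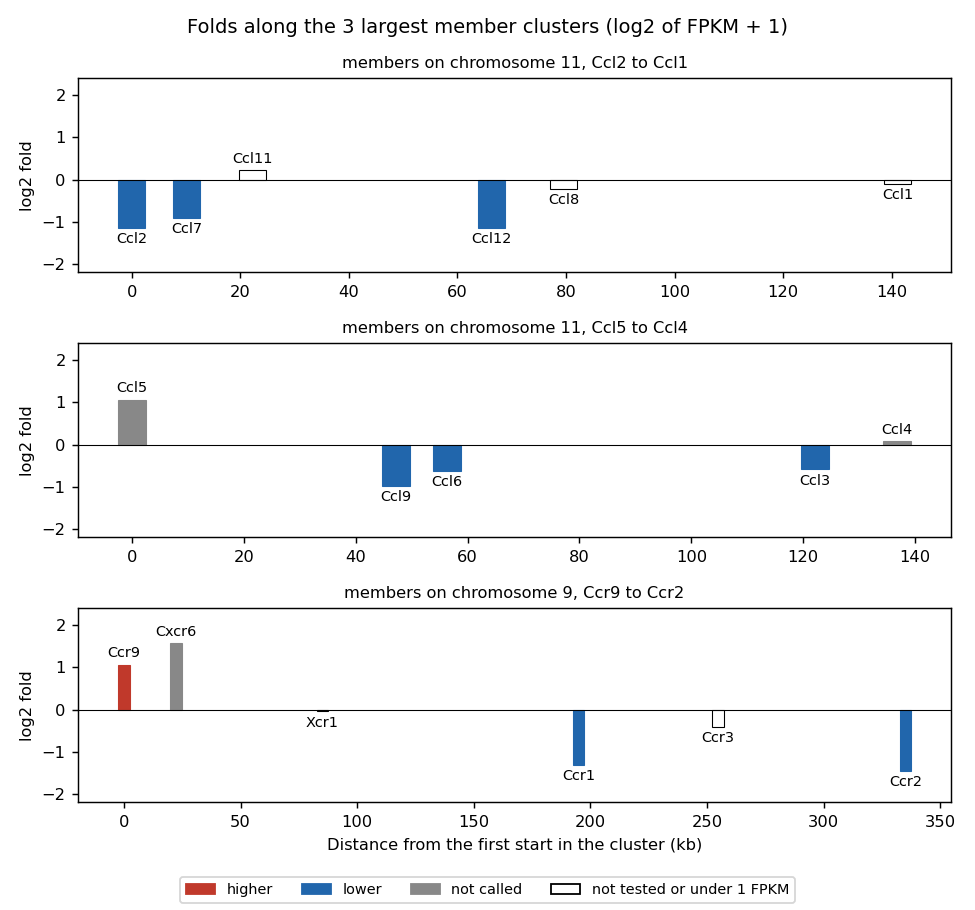
Log2 fold of FPKM + 1 for genes of the 3 largest clusters, Tgfbr2-deficient over control. Bars stand at the distance in kb of each gene's lowest coordinate from the lowest in its cluster. Colours give the call and open bars are genes not tested or under 1 FPKM in both groups. Genes called lower reach −1.15 and −0.98 in the chromosome 11 clusters and −1.46 in the chromosome 9 cluster, where Ccr9 at the other end stands at 1.07.

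Several values could hold reads of another gene, since the kits named in the labels do not mark the strand. In GENCODE M21, a mouse annotation on the same assembly, exons of Cxcr5 overlap Bcl9l, those of Ccr9 overlap Slc6a20a and those of Cxcl10 overlap Art3, each on the opposite strand. Exons of Ccr9 also overlap Gm17200 on the same strand and AC165425.1 on the opposite one, and those of Cx3cr1 overlap Gm33858 on the opposite strand, and no level is given here for these 3. Slc6a20a was at 0.0345 and 1.26 FPKM beside the 0.0579 and 1.22 FPKM of Ccr9, and was not called, with q = 0.192 in the authors' deposited table. Bcl9l was at 4.79 and 5.87 FPKM with q = 0.335 in the authors' deposited table. Ccl25, Ccl27a and Cxcl16, none of them called, also share exonic sequence with an opposite gene. Cxcr6 shares its deposited locus with Fyco1, at 6.71 and 5.33 FPKM. Ccl27a has a near-identical copy, Ccl27b, and is uncertain for that reason too.

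The sequences around the transcription start are shown for the called genes whose start window holds the letters TATAAA, the core of the TATA box that places the start of many inducible genes. RefSeq start windows of GRCm38.p6, 250 bases before to 50 bases after the start, were matched by symbol for 39 of the 55 genes and 14 of the 20 called ones. TATAAA was searched on both strands and was found in 13.6% of all 32851 windows, in 2 of the 8 windows of genes that fell and in 3 of the 6 windows of genes that rose. The 5 windows follow 5′ to 3′ on the gene's strand, with matches to TATAAA and TGANTCA in capitals.
Ccl12 (fell), chr11:82101595-82101894, plus strand: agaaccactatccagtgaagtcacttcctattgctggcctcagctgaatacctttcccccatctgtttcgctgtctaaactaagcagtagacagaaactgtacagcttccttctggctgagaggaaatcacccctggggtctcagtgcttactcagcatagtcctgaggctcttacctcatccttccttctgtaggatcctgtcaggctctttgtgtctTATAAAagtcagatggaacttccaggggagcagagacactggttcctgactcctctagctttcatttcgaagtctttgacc
Ccl9 (fell), chr11:83578587-83578886, minus strand: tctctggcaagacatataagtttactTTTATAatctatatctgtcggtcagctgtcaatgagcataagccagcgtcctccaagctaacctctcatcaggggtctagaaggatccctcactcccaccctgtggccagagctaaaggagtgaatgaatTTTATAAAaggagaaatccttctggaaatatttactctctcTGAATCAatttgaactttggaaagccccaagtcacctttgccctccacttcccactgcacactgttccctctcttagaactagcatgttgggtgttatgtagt
Cx3cl1 (rose), chr8:94771930-94772229, plus strand: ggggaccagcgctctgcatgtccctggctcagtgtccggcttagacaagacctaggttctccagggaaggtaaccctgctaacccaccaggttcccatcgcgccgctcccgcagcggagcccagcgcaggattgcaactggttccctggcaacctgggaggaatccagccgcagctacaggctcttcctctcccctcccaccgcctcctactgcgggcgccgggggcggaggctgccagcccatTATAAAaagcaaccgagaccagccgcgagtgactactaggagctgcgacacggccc
Cxcr4 (rose), chr1:128592250-128592549, minus strand: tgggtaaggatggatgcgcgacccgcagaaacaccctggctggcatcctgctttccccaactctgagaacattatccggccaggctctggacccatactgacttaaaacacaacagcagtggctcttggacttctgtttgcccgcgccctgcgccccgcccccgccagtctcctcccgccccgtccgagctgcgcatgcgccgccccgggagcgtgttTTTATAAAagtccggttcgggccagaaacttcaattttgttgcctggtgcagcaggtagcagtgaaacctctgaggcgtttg
Cxcr7 (rose), chr1:90203730-90204029, plus strand: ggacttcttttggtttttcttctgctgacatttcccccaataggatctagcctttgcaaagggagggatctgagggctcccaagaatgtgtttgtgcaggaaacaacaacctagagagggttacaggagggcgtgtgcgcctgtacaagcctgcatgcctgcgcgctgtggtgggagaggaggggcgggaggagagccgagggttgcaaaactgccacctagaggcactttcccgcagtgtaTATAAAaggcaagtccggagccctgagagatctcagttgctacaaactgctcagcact

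In Ccl12 the match begins 31 bases before the start, where a TATA box usually lies. In Cxcr4 a match on the gene's strand begins 30 bases before the start and overlaps one on the other strand that begins at 32. In Ccl9 the nearest begins 92 bases before it, in Cxcr7 8 bases and in Cx3cl1 6 bases. Where a match on one strand overlaps a match on the other, as in Ccl9 and Cxcr4, the capitals run on. TGANTCA is a loose pattern for the AP-1 element, with any base allowed in the middle. It was in 7.81% of all windows, in 1 of the 8 windows of genes that fell, that of Ccl9, and in 0 of the 6 of genes that rose. The match in Ccl9 reads TGAATCA, which is not the usual AP-1 element, TGACTCA or TGAGTCA. GAGGAAGT, one form of the element of the myeloid factor PU.1, was in 3.20% of all windows and in 1 of the 8 windows of genes that fell, that of Cxcr3. These matches describe the letters in the windows and no binding was measured.

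Chemokine-related genes outside the symbol rule moved in both directions. Pf4, a platelet chemokine that macrophages also make, fell from 1877 to 747 FPKM, above any of the 55 genes in both groups. Ppbp, the other platelet chemokine, rose from 4.88 to 20.7 FPKM. The authors' deposited table gives both genes q = 0.00029, and beside them all 7 megakaryocyte and platelet markers rose, from a summed 4.07 to 151 FPKM, led by Itga2b (0.925 to 42.2 FPKM) and Tubb1 (0.264 to 30.9 FPKM).

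Of the 3 atypical receptors under older symbols, Darc and Ccbp2 rose and Ccrl1 was not tested. Darc, the Duffy antigen receptor of venules and erythroid cells (ACKR1), rose from 1.03 to 3.99 FPKM with q = 0.0010 in the authors' deposited table. Ccbp2 (ACKR2), a scavenger of inflammatory CC chemokines, rose from 0.183 to 2.42 FPKM with q = 0.00029 in the authors' deposited table. Ccbp2 passed the filter through the deficient group alone, so it could not have been called lower. Ccrl1 (ACKR4) stood at 0.140 and 0.226 FPKM.

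Ccrl2, a receptor that presents chemerin, rose from 2.07 to 3.71 FPKM with q = 0.0455 in the authors' deposited table, while Cmklr1, the signalling receptor of chemerin, fell from 4.83 to 2.46 FPKM with q = 0.0080 in the authors' deposited table. Rarres2, chemerin itself, stood at 3.99 and 4.20 FPKM and was not called, and the authors' deposited table gives q = 0.954. The chemokine-like Cklf fell from 35.3 to 17.4 FPKM with q = 0.0097 in the authors' deposited table, and its relatives Cmtm3 (162 to 90.5 FPKM), Cmtm6 (93.1 to 53.9 FPKM) and Cmtm7 (169.6 to 98.4 FPKM) fell too, with q of 0.0023 or less in the authors' deposited table.

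Of 51 genes in lists of receptor signalling and of chemokine-processing enzymes, 50 passed the filter, with 21 called lower and 8 higher, or 42.0% and 16.0%, beside 14.7% and 23.9% of all tested genes. At a mean of 10 FPKM or more, 18 of 39 were called lower and 3 higher, or 46.2% and 7.69%, beside 25.4% and 9.69% of all genes at that level. Without the shedding and clipping enzymes, 20 of 45 were called lower and 5 higher, or 44.4% and 11.1%. Among the G protein subunits Gnai2, the main inhibitory subunit of leukocytes, fell from 741 to 446 FPKM, and Gnai1 rose from 1.46 to 6.75 FPKM. The authors' deposited table gives them q = 0.0388 and q = 0.00029.

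Arrb2, the arrestin that turns receptors off and draws them into the cell, fell from 214 to 86.1 FPKM, and Adrbk1, the receptor kinase GRK2, from 118 to 65.2 FPKM, both with q = 0.00029 in the authors' deposited table. Grk5, another receptor kinase, rose from 0.665 to 1.95 FPKM with q = 0.0017 in the authors' deposited table. It passed the filter through the deficient group alone, so it could not have been called lower. Of 8 RGS genes, which shorten the G protein signal, 4 fell and 1 rose, or 50% and 12.5%, beside 14.7% and 23.9% of all tested genes. Among all tested genes at a mean of 10 FPKM or more, 25.4% were called lower and 9.69% higher. Rgs10, the RGS protein of microglia, fell from 113 to 53.1 FPKM, Rgs19 fell from 92.4 to 51.1 FPKM and Rgs16 rose from 1.68 to 5.37 FPKM, and the largest of their q-values in the authors' deposited table was 0.00079.

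Of 20 downstream effectors 12 fell and 2 rose, or 60% and 10%. Of all tested genes 14.7% fell and 23.9% rose, and of those at a mean of 10 FPKM or more 25.4% and 9.69%. Pik3cg, the lipid kinase that the G protein subunits activate in leukocytes, fell from 48.8 to 20.999 FPKM, Was, the actin regulator of blood cells, from 53.1 to 23.8 FPKM, and Rac2, the GTPase of leukocyte motility, from 144 to 73.2 FPKM, each with q = 0.00029 in the authors' deposited table. Of 5 tested enzymes that shed or clip chemokines 3 rose and 1 fell, or 60% and 20%, beside 23.9% and 14.7% of all tested genes. Those that rose were Mmp2, from 6.52 to 25.0 FPKM, Mmp9, from 8.09 to 27.9 FPKM, and Dpp4, which trims the first residues of CXCL12, from 0.272 to 2.61 FPKM, and for all 3 the authors' deposited table gives q = 0.00029. Dpp4 passed the filter through the deficient group alone, so it could not have been called lower.

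The chemokine folds were set against those of cell type markers measured in the same groups. The 16 macrophage markers had a median log2 fold of −1.06 on FPKM + 1 and a range from −1.44 to 0.47, beside −1.46 to −0.59 for the 12 chemokine genes that fell. Of the genes that fell, Ccl3 and Ccl6 stood 0.47 and 0.44 above that median, and Ccr2 differed from it by −0.40. The 8 genes that rose had folds of 0.70 to 2.18 on FPKM + 1. On the same scale the endothelial markers had a median of 2.65 and a range of 0.43 to 3.91. The neuronal and progenitor markers had a median of 1.23 and a range of 0.90 to 2.12. Folds of low genes depend on the pseudocount: at 0.1 FPKM, Ccr7 and Ccr9 stood at 3.04 and 3.06. Marker folds are not given at that pseudocount. Members chosen by their call have a direction fixed by that choice, so these ranges are a description. The fibroblast and meningeal markers, summed, went from 130.2 to 1084 FPKM with 9 of 9 called higher. The most abundant were Col1a1, 44.1 to 404 FPKM, and Col3a1, 38.8 to 305 FPKM. The pericyte and smooth muscle markers went from 13.4 to 103 FPKM with 7 of 8 called higher. The most abundant were Myl9, 4.46 to 45.0 FPKM, and Pdgfrb, 2.63 to 16.8 FPKM. Of this list Rgs5, Cspg4, Kcnj8 and Abcc9 were under 1 FPKM in controls and could pass the filter only by being higher.

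**Figure D4:**
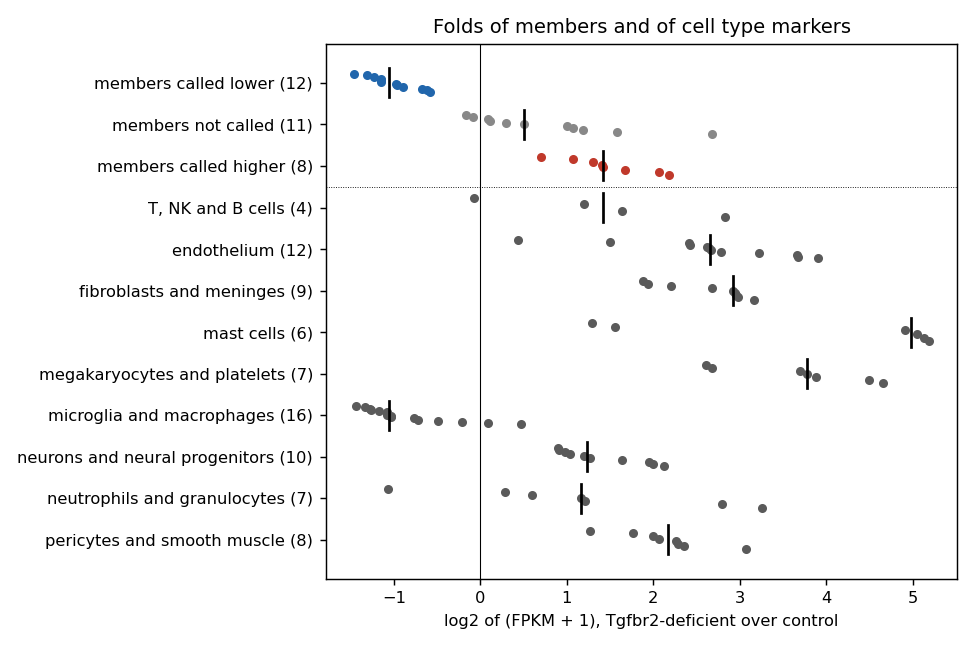
Log2 fold of FPKM + 1, Tgfbr2-deficient over control, for the chemokine and receptor genes by call and for 9 lists of cell type markers, with the number of genes in brackets, 1 point per gene and a black bar at the median. The 12 members called lower overlap the microglia and macrophage markers, whose median is −1.06. The 8 called higher lie between 0.70 and 2.18. Marker medians include 2.65 for endothelium, 2.92 for fibroblasts, 2.17 for pericytes and 1.23 for neurons.

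Markers of 3 other lists moved in the same comparison. All 10 neuronal and progenitor markers rose, from a summed 116 to 271 FPKM, led by Tubb3 (66.8 to 126 FPKM) and Stmn2 (17.8 to 34.2 FPKM). Of 6 mast cell markers that passed the filter 4 rose, and that list summed to 6.04 and 333 FPKM, led by Cpa3 (2.93 to 129 FPKM) and Cma1 (1.18 to 78.3 FPKM). Of 7 neutrophil and granulocyte markers 3 rose and 1 fell, with sums of 29.8 and 64.5 FPKM; the most abundant were Mpo, which rose from 2.23 to 29.9 FPKM, and Csf3r, which fell from 18.6 to 8.36 FPKM. Mast cell and megakaryocyte markers had median control levels of 0.915 and 0.439 FPKM, so those under 1 FPKM could pass the filter only by being higher. The same held for Camp and Elane of the granulocyte list and for Pax6 of the neuronal and progenitor list. The part of any of these lists in a chemokine value was not tested.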

How the data were processed

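The members and the gene lists were chosen with earlier results of these data known. PolyA+ RNA was amplified with the SMART-Seq v4 kit and made into Nextera XT libraries, per the labels' protocols, and read as single ends of 50 bases. Per the submitters' processing notes, reads were handled with TopHat2, then Cufflinks 2.2.1 with Cuffdiff, on build mm10. For the annotation, normalization and options, nothing is stated in the labels. The authors' deposited table holds 1 FPKM value per gene and group, made by Cuffdiff, and 0 columns of values per library, so depth is unknown. Its log2 fold is that of the deposited FPKM values and differed from their ratio by at most 3.6e-05. Each gene's deposited p-value and its q-value come from Cuffdiff, with the q-value adjusted over the entries that had a test. The smallest deposited p-value was 5e-05. The deposited test statistic, a score, was not used.

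Of 23358 entries, 14043 had a test. A call, in either direction, needed a deposited q-value under 0.05 and at least 1 FPKM in 1 group. The FPKM filter left 13356 genes. A gene under 1 FPKM in 1 group could pass it only by being higher in the other. Folds on FPKM + 1 understate changes of low genes. List symbols matched in 149 of 150 cases. The values of 1 member are not reported here, although counts, sums and medians include it. By a fixed rule, every other called member is named with its levels, as is every member not called that reached 1 FPKM, and of each pathway list the 3 called genes with the smallest p-value, ties ordered by fold, related genes at 1 FPKM or more, and the 2 most abundant genes of each marker list. The deposited starts count from 0 and were raised by 1. Alternatives were other filters, thresholds, pseudocounts and centrings, with recomputed q-values. Simulated data were used only to check the code that recomputed them. That check says nothing of the deposited p-values or of the spread between libraries. Python 3.11.15 and pandas 2.3.3 were used.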

Additional observations from a re-analysis of the deposited data

How the results depend on the processing

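Of the 20 called members, all 20 kept their call with no FPKM filter and with q-values recomputed over the filtered genes, with or without rows of several symbols. With no FPKM filter Cxcl1 and Ccr3 were added. At q under 0.01, Ccl3 and Ccl6 lost their call and 10 fell. At a minimum of 5 FPKM the members called higher dropped to 3, with Ccr7, Ccr9, Cx3cl1, Cxcr4 and Cxcr5 under the filter, the pathway genes called higher to 5 and the members' median log2 fold to −0.65 from 0.11. With a log2 fold of at least 1 also required, the members called lower dropped to 7, with Ccl24, Ccl3, Ccl6 and Ccl7 among those lost, and the pathway genes called lower to 4 from 21. When folds were centred on 80 ribosomal protein genes, each log2 fold moved up by 0.54: no called member changed sign, Ccl3 and Ccl6 came to −0.05 and −0.08, and the members' median became 0.65. At a pseudocount of 0.1 FPKM in place of 1, the 7 member folds that moved most, all upward, included those of Ccr7, Ccr9 and Cxcr4. Ccr7 went from 1.41 to 3.04, Ccr9 from 1.07 to 3.06 and Cxcr4 from 1.42 to 2.02. The members' median became 0.19. Depth was not measured here, so the precision of the members near 1 FPKM is unknown. No paired analysis was possible because the table holds 1 value per group, and leaving out single libraries was not run for the same reason.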
